A study of Mus musculus with 14 samples.

Results

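The 10 genes described here encode the best known members of the Bcl2 family in the mouse: Bcl2, Bcl2l1, Mcl1, Bax, Bak1, Bid, Bad, Bcl2l11, Bbc3 and Pmaip1. They are listed by name, with no threshold on a measured value, and earlier results of these data were known when the list was drawn up. All 10 were among the 24833 genes of the count table, and all 10 had enough reads to be tested. The proteins of this family decide whether the outer membrane of the mitochondrion stays intact. Bcl2, Bcl-xL (encoded by Bcl2l1) and Mcl-1 hold it closed and keep the cell alive, Bax and Bak (encoded by Bak1) open it and release cytochrome c, and the BH3-only proteins Bid, Bad, Bim (Bcl2l11), Puma (Bbc3) and Noxa (Pmaip1) shift the balance towards death. In the blood system the survival of hematopoietic stem cells is known to need Mcl-1, and Noxa is known for binding Mcl-1 and favouring its breakdown.

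The RNA came from bone marrow cells of C57BL/6 mice sorted as SLAM cells, a fraction rich in hematopoietic stem cells that is lineage-negative, Sca-1-positive and Kit-positive, lacks Flk2 (the product of Flt3) and CD48, and carries CD150 (the product of Slamf1). The donors had been injected intraperitoneally for 1 or 20 days, either with the inflammatory cytokine IL-1β (interleukin-1 beta) at a daily 0.5 µg for each animal, or with PBS, the saline vehicle. The groups were IL-1β for 1 day (3 libraries), PBS for 1 day (3), IL-1β for 20 days (4) and PBS for 20 days (4). Each library held cells pooled from 3 to 5 mice, so replicates are separate pools and no value belongs to a single animal.

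Totals ran between 21654896 and 29441947 counts per library, so that 3 counts, the limit that a count of 0 allows, correspond to 0.101 to 0.144 CPM (counts scaled to library size, here with TMM factors). That limit covers counting error only, since amplified reads without molecular identifiers are not independent molecules. Sums over marker lists are in CPM of the library total, without TMM factors. All 10 stem cell markers looked at, among them Kit, Slamf1 and Procr, were detected, with summed levels of 2227 to 3176 CPM with IL-1β and 2871 to 4302 CPM with PBS at 1 day, and of 3240 to 3475 CPM with IL-1β and 2754 to 4044 CPM with PBS at 20 days. In replicate 3 of IL-1β for 20 days the 10 neutrophil markers summed to 1719 CPM, against 2.56 to 9.69 CPM in the other 13 libraries. The titles of the libraries carry tags that split them into naming sets (10k and E060216 at 1 day, E061316 and an untagged set at 20 days), each with equal numbers of both treatments. The set was a term of the model. Duration and naming set cannot be told apart, so levels of 1-day and 20-day libraries are given side by side without a test.

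Levels differed widely between the members. Per kilobase of annotated exon, and over all 14 libraries, Mcl1 had the highest level at 141 ± 34.3 CPM per kilobase (SD, n = 14), and no library of another member reached its range. Bax followed at 50.7 ± 6.60 CPM per kilobase, also clear of its neighbours. Bid (17.2 ± 3.25) and Bad (16.4 ± 2.43) overlapped over the 14 libraries, and their order went with the treatment: Bid was above Bad in 1 of 7 IL-1β libraries and in 6 of 7 PBS libraries. Bcl2 (13.1 ± 1.30) and Bcl2l1 (12.9 ± 2.08) overlapped too, with Bcl2 above Bcl2l1 in 6 of 7 IL-1β libraries and in 2 of 7 PBS libraries. Bbc3 came next at 6.10 ± 1.69 CPM per kilobase, below Bcl2l1 in 14 of 14 libraries. Bcl2l11 stood at 2.22 ± 0.526, and Bak1 (0.679 ± 0.181) and Pmaip1 (0.604 ± 0.489) were lowest. Pmaip1 was above Bak1 in all 4 libraries of IL-1β for 20 days, at means of 1.22 and 0.558 CPM per kilobase, and below it in all 4 of PBS for 20 days, at 0.126 and 0.777, while at 1 day Bak1 was above Pmaip1 in 3 of 3 IL-1β and 2 of 3 PBS libraries. These orders are a description with no test. The length used was that of all annotated exons of a gene merged, which may differ from that of the transcripts expressed. The order of members at close levels depends on that choice. The gene counts do not separate splice forms, so the long and short forms of Bcl-x or Mcl-1 are summed in these levels.

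**Figure D1:**
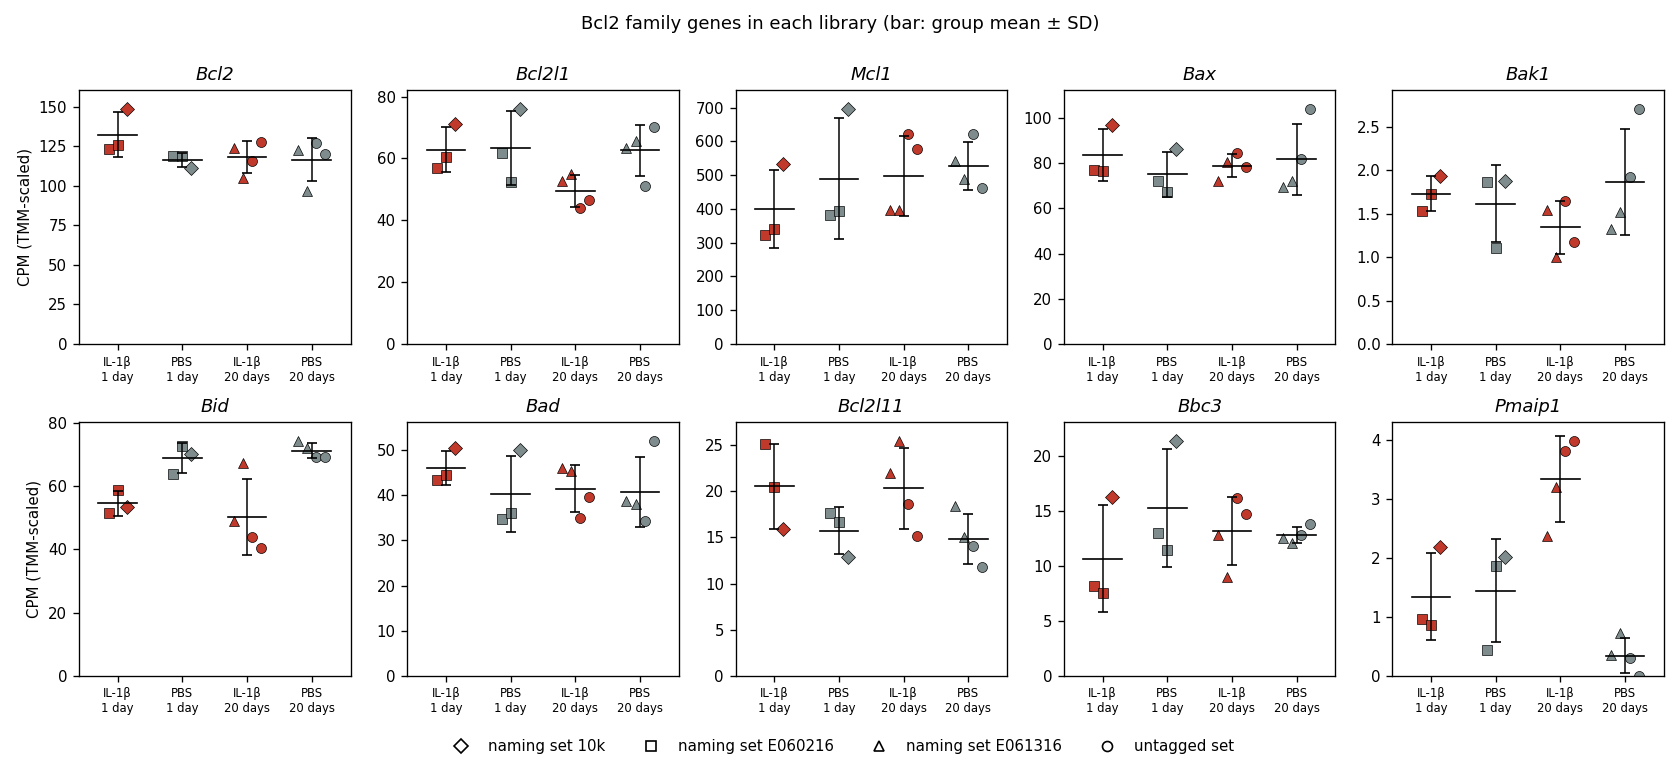
CPM (TMM-scaled, linear axis from 0) of the 10 members in each of the 14 libraries; points are libraries, bars the mean and SD of a group, red IL-1β and grey PBS, and shapes the naming sets. The Pmaip1 libraries of IL-1β for 20 days lie between 2.37 and 3.99 CPM, all above the PBS libraries of the same duration.

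After 1 day of IL-1β no member was called by edgeR's quasi-likelihood test at a false discovery rate of 0.05 (Benjamini-Hochberg over the 15466 genes tested), against 4.35% of all genes, of which 2.52% were higher and 1.83% lower. The CPM of both groups did not overlap for 2 members at 1 day (Bcl2 and Bid), against 17.7% of all genes, and for 2 at 20 days (Bid and Pmaip1), against 10.4%. At 1 day 3 members had an unadjusted p under 0.05 (Bid, Bcl2l11 and Bbc3), against 2899 of the 15466 genes. There limma-voom called 0 members and DESeq2 called 1. After 20 days 2 of 10 members were called by edgeR, Pmaip1 higher and Bid lower, against 7.46% of all genes, of which 3.94% were higher and 3.52% lower. At that time 4 members had an unadjusted p under 0.05, against 3162 of the 15466 genes. For 20 days limma-voom called the same 2, and DESeq2 called Bcl2l1 and Bcl2l11 as well. How many of all genes DESeq2 called is given at the end. The median log2 fold change of the 10 members was 0.05 at 1 day, where that of all genes was -0.01, and -0.01 at 20 days, where that of all genes was -0.00031. In each comparison 5 members had a positive and 5 a negative fold change. The 1-day calls over all genes split into 389 higher and 283 lower, or into 344 and 399 with upper-quartile scaling. In bulk RNA of this kind fewer cells of a type and less RNA per cell cannot be told apart.

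Among the members that protect the cell, Bcl2 differed little between the treatments. At 20 days it stood at 124, 105, 116 and 127 CPM with IL-1β and at 122, 96.7, 127 and 120 CPM with PBS, a log2 fold change of 0.02 ± 0.10 (SE, edgeR adjusted p = 0.948). The ranges overlapped almost wholly. At 1 day Bcl2 stood at 123, 125 and 148 CPM with IL-1β and at 119, 119 and 111 CPM with PBS. All 3 IL-1β libraries were above all 3 PBS libraries, as for 8.75% of all genes, and the fold change of 0.18 ± 0.11 did not pass the test (edgeR adjusted p = 0.417). The Bcl2 gene (chr1:106538178-106714274, minus strand, GRCm38) shares exonic bases with the antisense gene D630008O14Rik, whose reads cannot be separated from it in libraries that do not mark the strand.

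Bcl2l1, on chromosome 2 at chr2:152780668-152831728, stood at 52.5, 55.0, 44.0 and 46.6 CPM after 20 days of IL-1β, and at 63.5, 65.7, 51.1 and 70.1 CPM with PBS. The third PBS library lay within the IL-1β range and the others above it. The log2 fold change was -0.34 ± 0.10 and missed the threshold (edgeR adjusted p = 0.0620). DESeq2 called it (adjusted p = 0.0194), and so did edgeR without PBS replicate 3 (adjusted p = 0.0334, log2 fold change -0.41). At 1 day the values were 57.1, 60.4 and 71.1 CPM with IL-1β and 61.7, 52.5 and 76.0 CPM with PBS, a log2 fold change of -0.01 ± 0.12.

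Mcl1 (chr3:95658788-95663176, plus strand), the member with the highest level, stood higher in the 10k libraries than in the other libraries of 1 day. At 1 day it had 322, 342 and 532 CPM with IL-1β and 381, 393 and 696 CPM with PBS. Replicate 3, from the 10k set, was the highest of each group. The log2 fold change was -0.39 in the 10k set and -0.22 in E060216. The combined log2 fold change was -0.28 ± 0.13 (edgeR adjusted p = 0.276). At 20 days Mcl1 had 398, 396, 623 and 576 CPM with IL-1β and 541, 489, 622 and 461 CPM with PBS, a log2 fold change of -0.11 ± 0.11 (edgeR adjusted p = 0.656). The sets differed in sign there, at -0.38 in E061316 and 0.15 in the untagged set. In the fit without the untagged set edgeR called Mcl1 lower at both times, with adjusted p = 0.0289 at 1 day and adjusted p = 0.0355 at 20 days.

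The pore-forming members did not pass the test at either time. Bax (chr7:45461697-45466898, minus strand) had 76.9, 76.7 and 96.7 CPM with IL-1β and 72.0, 67.0 and 86.3 CPM with PBS at 1 day. At 20 days it had 72.2, 80.5, 84.3 and 78.4 CPM with IL-1β and 69.4, 72.1, 81.6 and 104 CPM with PBS. The groups overlapped at both times, with means of 83.4 ± 11.5 CPM with IL-1β and 75.1 ± 10.01 CPM with PBS at 1 day (SD, n = 3 each) and of 78.8 ± 5.03 CPM with IL-1β and 81.8 ± 15.7 CPM with PBS at 20 days (SD, n = 4 each). Its log2 fold changes were 0.15 ± 0.11 and -0.04 ± 0.10 (edgeR adjusted p = 0.521 and 0.882). Bak1 (chr17:27019810-27029009, minus strand) was near the low end of what these libraries measure, with 28 to 62 counts per library. At 20 days it had 1.54, 1.01, 1.65 and 1.17 CPM with IL-1β and 1.32, 1.52, 1.93 and 2.71 CPM with PBS, and the log2 fold change of -0.44 ± 0.34 did not pass (edgeR adjusted p = 0.538). At 1 day it averaged 1.73 ± 0.205 CPM with IL-1β and 1.62 ± 0.445 CPM with PBS (SD, n = 3 each), a log2 fold change of 0.10 ± 0.39. Both Bax, through Gm45808, and Bak1, through Ggnbp1, share exonic bases with another gene. Bok, a further pore-forming relative outside the 10, did change: it fell to 4.74, 4.39, 1.56 and 1.88 CPM after 20 days of IL-1β, against 5.38, 8.83, 9.64 and 10.9 CPM with PBS. No IL-1β library reached the lowest PBS library, as for 4.99% of all genes. The fold change was 2.95-fold lower (log2 -1.56 ± 0.32, edgeR adjusted p = 0.00927). The difference was -0.64 in E061316 and -2.57 in the untagged set on the log2 scale. At 1 day Bok had 14.02, 11.8 and 14.1 CPM with IL-1β and 8.39, 7.34 and 7.93 CPM with PBS. Here the IL-1β libraries were all above the PBS libraries, as for 8.75% of all genes. The log2 fold change of 0.75 ± 0.34 did not pass (edgeR adjusted p = 0.253). The sequence upstream of Bok is shown because this was the called gene of the wider family. The 250 bases before the RefSeq start (chr1:93685325-93685574, plus strand, GRCm38.p6) are given 5′ to 3′, with the GC box in capitals (GGGCGG or, on the other strand, CCGCCC).
Bok: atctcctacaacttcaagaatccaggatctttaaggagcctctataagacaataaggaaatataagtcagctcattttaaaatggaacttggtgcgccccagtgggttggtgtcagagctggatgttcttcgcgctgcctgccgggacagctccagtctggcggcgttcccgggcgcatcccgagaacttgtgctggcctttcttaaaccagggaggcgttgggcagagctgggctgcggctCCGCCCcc

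Among the BH3-only members, Bid fell and Pmaip1 rose after 20 days of IL-1β. Bid, which caspase-8 cuts to link death receptors to the mitochondrion, stood at 48.8, 67.4, 43.8 and 40.5 CPM with IL-1β and at 74.3, 72.1, 69.3 and 69.1 CPM with PBS. The PBS libraries lay close together, and the highest IL-1β library was just below them, as all IL-1β libraries were for 4.99% of all genes. Bid was 1.44-fold lower with IL-1β (log2 -0.52 ± 0.12, edgeR adjusted p = 0.0132). The difference on the log2 scale was -0.33 in E061316, which did not pass by itself (edgeR adjusted p = 0.269), and -0.72 in the untagged set. Without the term for the naming set the call was lost (log2 -0.51, edgeR adjusted p = 0.0529). Without the untagged set it was lost too (log2 -0.33, edgeR adjusted p = 0.243). At 1 day Bid had 51.3, 58.9 and 53.4 CPM with IL-1β and 63.8, 72.7 and 70.2 CPM with PBS. All 3 IL-1β libraries were below the PBS libraries, as for 8.91% of all genes in this comparison, and the log2 fold change of -0.34 ± 0.13 did not pass (edgeR adjusted p = 0.180). The 20-day effect minus the 1-day effect was -0.19 ± 0.18 (edgeR adjusted p = 0.633), so a difference between the durations was not detectable. Leaving out any 1 of the 14 libraries kept the 20-day call, with log2 fold changes of -0.67 to -0.48. Without replicate 3 of IL-1β, the library with neutrophil RNA, the log2 fold change was -0.52 (edgeR adjusted p = 0.0346).

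Bid (chr6:120891930-120916853, minus strand, GRCm38) shares 628 exonic bases with Bcl2l13 on the opposite strand, and reads of the pair there cannot be told apart. Bcl2l13 itself had a log2 fold change of 0.07 ± 0.12 at 20 days (edgeR adjusted p = 0.828). The sequence upstream of Bid is shown because this was the member that fell. The 250 bases before the RefSeq start (chr6:120916825-120917074, minus strand, GRCm38.p6) hold 3 GC boxes, in capitals.
Bid: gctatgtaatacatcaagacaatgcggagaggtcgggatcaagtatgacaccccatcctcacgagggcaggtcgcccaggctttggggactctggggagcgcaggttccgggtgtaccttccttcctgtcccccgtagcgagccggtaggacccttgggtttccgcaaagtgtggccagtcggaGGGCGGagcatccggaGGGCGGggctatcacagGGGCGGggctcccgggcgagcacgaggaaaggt
Both strands were searched in the same 250 bases of 32851 RefSeq promoters. The GC box GGGCGG was in 32.7% of them and in 10 of the 15 promoters of the 9 members looked up, Pmaip1 not being included. The E-box CACGTG was in 6.02% of all promoters, the FOXO letters GTAAACA in 3.17% and a p53 half-site in 7.13%. The E-box was found in 2 members (Bax and Bbc3), the FOXO letters in 2 (Bbc3 and Bcl2l11) and the p53 half-site in 1 (Bax). Overlaps between motifs were not looked at, and a match describes letters and not binding.

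Pmaip1, which encodes Noxa, stood at 2.37, 3.20, 3.82 and 3.99 CPM after 20 days of IL-1β and at 0.353, 0.719, 0.304 and 0 CPM with PBS. These rest on 66, 89, 88 and 102 counts with IL-1β and on 8, 18, 9 and 0 counts with PBS, where the 0 allows up to 0.131 CPM. Every IL-1β library was above every PBS library, as for 5.39% of all genes. The PBS level was itself low here, at 0.344 ± 0.295 CPM (SD, n = 4). With PBS at 1 day it was 1.44 ± 0.874 CPM (SD, n = 3), set beside it without a test. The fitted difference was 10.2-fold higher with IL-1β (log2 3.35 ± 0.68, edgeR adjusted p = 0.00859). It was 2.36 in E061316 (edgeR adjusted p = 0.166) and 4.54 in the untagged set (edgeR adjusted p = 0.0105) on the log2 scale, and with the untagged set left out the call was lost (log2 2.36, adjusted p = 0.0967). Leaving out any 1 of the 14 libraries kept the call, with log2 fold changes of 2.83 to 3.88. Without replicate 3 of IL-1β it was 3.24 (edgeR adjusted p = 0.0227).

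At 1 day Pmaip1 did not separate the treatments, with 0.964, 0.866 and 2.19 CPM with IL-1β and 0.438, 1.87 and 2.02 CPM with PBS, a log2 fold change of -0.18 ± 0.70 (edgeR adjusted p = 0.932). The 20-day effect minus the 1-day effect was 3.53 ± 0.97 on the log2 scale and missed the threshold (edgeR adjusted p = 0.0724). DESeq2 called it (adjusted p = 0.00343), as did edgeR without PBS 20-day replicate 4 (adjusted p = 0.0489) and without the E061316 set (adjusted p = 0.0327). Of the 10 members, edgeR called 0 for this difference, against 2.14% of all genes (1.15% with a higher and 0.989% with a lower effect at 20 days). At an unadjusted p under 0.05 were 2 members (Bbc3 and Pmaip1), against 2842 of all 15466 genes tested. For this difference limma-voom called 0 members and DESeq2 called 1.

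Bcl2l11, which encodes Bim (chr2:128126038-128162547, plus strand), had a higher mean with IL-1β at both times and was called at neither. At 20 days it had 22.0, 25.5, 18.7 and 15.2 CPM with IL-1β and 18.4, 15.0, 14.1 and 11.8 CPM with PBS. The groups overlapped, and within each naming set both IL-1β libraries were higher. The log2 fold change was 0.45 ± 0.13 (edgeR adjusted p = 0.0542), and DESeq2 called it (adjusted p = 0.0138). At 1 day the values were 25.2, 20.5 and 15.9 CPM with IL-1β and 17.7, 16.6 and 12.9 CPM with PBS, a log2 fold change of 0.38 ± 0.15 (edgeR adjusted p = 0.194).

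Bbc3, which encodes the p53 target Puma (chr7:16308393-16318205, plus strand), had 8.20, 7.50 and 16.2 CPM with IL-1β and 13.0, 11.5 and 21.3 CPM with PBS at 1 day. In both naming sets the IL-1β libraries were below the PBS libraries of the same set. The log2 fold change of -0.55 ± 0.17 did not pass in edgeR (adjusted p = 0.0884) and passed in DESeq2 (adjusted p = 0.0369). At 20 days it had 12.8, 8.95, 16.1 and 14.7 CPM with IL-1β and 12.5, 12.0, 12.8 and 13.8 CPM with PBS, a log2 fold change of 0.02 ± 0.15. The IL-1β libraries spread on both sides of the PBS libraries. The difference between the durations was 0.58 ± 0.23 (edgeR adjusted p = 0.186). 

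Bad (chr19:6941861-6951899, plus strand), whose product binds Bcl2 and Bcl-xL, had 43.4, 44.5 and 50.4 CPM with IL-1β and 34.8, 36.0 and 50.04 CPM with PBS at 1 day. At 20 days it had 46.1, 45.4, 34.9 and 39.7 CPM with IL-1β and 38.8, 38.1, 34.3 and 52.1 CPM with PBS. The groups overlapped at both times, and within each naming set of 20 days the sign differed, at 0.25 in E061316 and -0.21 in the untagged set. Its log2 fold changes were 0.21 ± 0.15 and 0.02 ± 0.13 (edgeR adjusted p = 0.521 and 0.961).

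**Figure D2:**
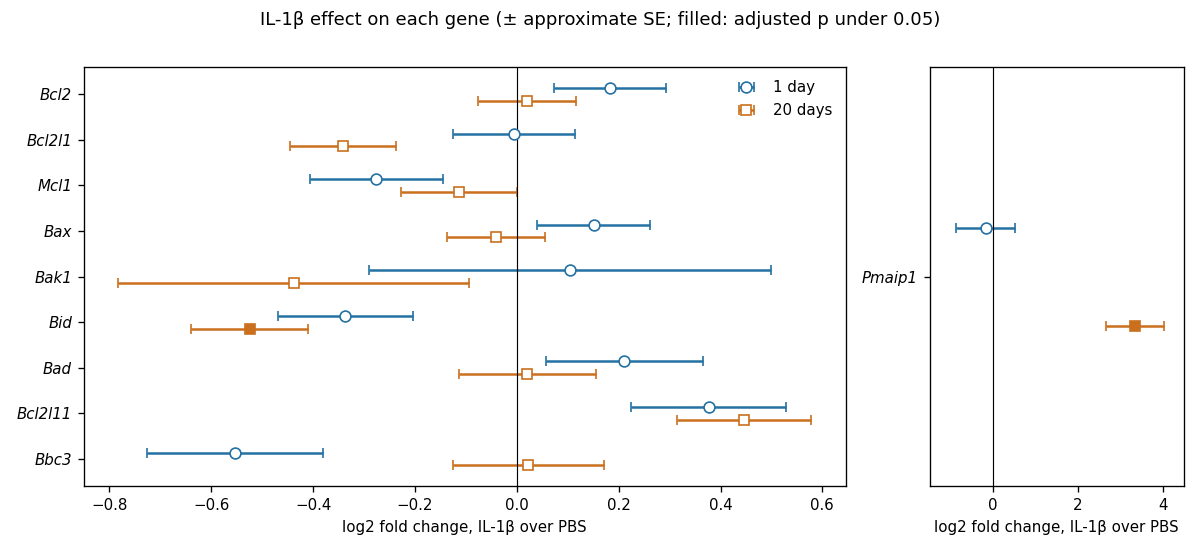
Log2 fold changes of the 10 members, IL-1β over PBS, at 1 and 20 days from edgeR, with bars of 1 SE; filled points passed a false discovery rate of 0.05 over all genes, and Pmaip1 has its own axis. Bid at -0.52 and Pmaip1 at 3.35, both at 20 days, are the filled points.

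**Figure D3:**
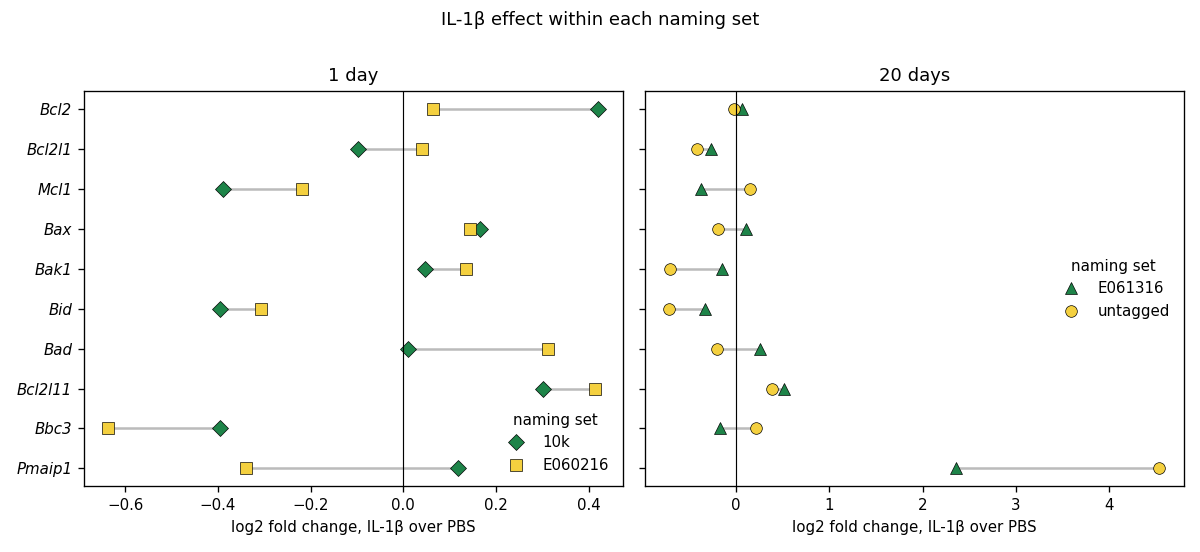
The same log2 fold changes fitted within each naming set, from the 10k and E060216 sets at 1 day and the E061316 and untagged sets at 20 days. Bid is negative and Bcl2l11 positive in all 4 sets, while Mcl1 at 20 days is -0.38 in E061316 and 0.15 in the untagged set.

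Ratios within a library do not depend on the scaling between libraries. At 20 days there were 2.39, 2.16, 2.36 and 3.07 counts of Bcl2l1 for each count of Bcl2l11 with IL-1β, and 3.46, 4.39, 3.63 and 5.92 with PBS. No IL-1β library reached the lowest PBS library. At 1 day the ratios were 2.27, 2.95 and 4.47 with IL-1β and 3.49, 3.16 and 5.90 with PBS, and the groups overlapped. The ratio of Bcl2 to Bcl2l11 at 20 days was 5.64, 4.11, 6.21 and 8.39 with IL-1β and 6.66, 6.45, 9.02 and 10.1 with PBS, and that of Mcl1 to Bcl2l11 was 18.1, 15.5, 33.4 and 38.0 with IL-1β and 29.5, 32.6, 44.2 and 38.9 with PBS, with overlap in both. At 1 day the Bcl2 ratio ran over 4.88 to 9.34 with IL-1β and 6.72 to 8.61 with PBS. The Mcl1 ratio ran over 12.8 to 33.5 with IL-1β and 21.5 to 54.0 with PBS, so both overlapped. These ratios are a description with no test, and since the genes differ in length they compare counts and not molecules. How often the ratios of other gene pairs separate the groups was not looked at.

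**Figure D4:**
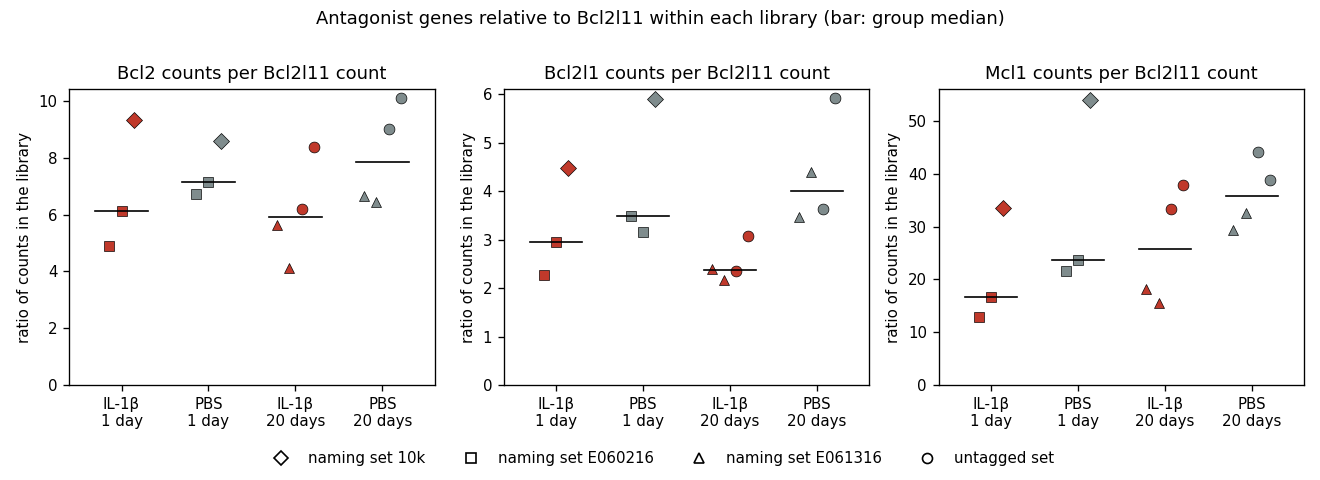
Counts of Bcl2, Bcl2l1 and Mcl1 per count of Bcl2l11 in each library, red IL-1β and grey PBS, with bars at the group median and shapes for the naming sets. At 20 days the Bcl2l1 ratios are 2.16 to 3.07 with IL-1β and 3.46 to 5.92 with PBS.

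The genes whose log2 levels ran closest to Bbc3 over the 14 libraries, centred on their means, were Zfp36l1, Map1lc3a and Pnrc1, at root mean square differences of 0.14, 0.15 and 0.15 against an SD of 0.39 for Bbc3 itself. Those closest to Pmaip1 were Mrvi1 (0.75), Dtx4 (0.90) and Susd2 (0.90), against an SD of 1.54 for Pmaip1. Pnrc1 fell at 1 day (log2 -0.49, edgeR adjusted p = 0.00818). Mrvi1 rose at 20 days (log2 2.98, edgeR adjusted p = 0.0371), and Dtx4 did not pass at either time. Susd2 rose at 20 days (log2 3.11, edgeR adjusted p = 0.000134) and also at 1 day (log2 1.48, edgeR adjusted p = 0.0445), where Pmaip1 had a log2 fold change of -0.18. These genes were picked for the likeness and are a description.

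Of the 56 tested genes of the 4 lists around the family, edgeR called 3 at 1 day (5.36%, against 4.35% of all genes) and 4 at 20 days (7.14%, against 7.46% of all genes), shares near those of all genes. Against medians of -0.01 at 1 day and -0.00031 at 20 days over all genes, the median log2 fold change was 0.0014 and 0.07 for the other Bcl2 relatives, 0.12 and 0.06 for the mitochondrial death pathway, 0.11 and 0.03 for the death receptors, and -0.02 and 0.02 for the regulators of the members. Of 9 tested other Bcl2 relatives, edgeR called 0 at 1 day, while limma-voom called 0 and DESeq2 called 1. At an unadjusted p under 0.05 were 2 of the 9, against 2899 of all 15466 genes tested. The smallest p was that of Bnip3, a mitophagy gene, at -0.33 ± 0.11 (edgeR adjusted p = 0.110). At 20 days edgeR called 1 (Bok, lower), with 4 at an unadjusted p under 0.05, against 3162 of all 15466 genes. At that time limma-voom called 2 (Bok lower, Bmf higher) and DESeq2 called Bok lower and 3 genes higher (Bcl2l14, Bmf and Bnip3l). Bmf, a BH3-only gene singled out after its values were seen, had 4.20, 1.73, 4.03 and 5.28 CPM with IL-1β and 1.54, 0.639, 2.50 and 0.481 CPM with PBS at 20 days, and missed in edgeR (log2 1.54 ± 0.53, adjusted p = 0.0982). It passed in limma-voom (adjusted p = 0.0484) and DESeq2 (adjusted p = 0.0369). Bcl2a1a, Bcl2a1b and Bcl2a1d, near-identical copies that the counting could split, had at most 11 counts in a library and were not tested.

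Of 19 genes of the mitochondrial death pathway, edgeR called 2 higher and 0 lower at each duration, where 2.52% of all genes were called higher at 1 day and 3.94% at 20 days. At 1 day Birc5, the inhibitor of apoptosis survivin that also acts in mitosis, rose to 209 ± 9.15 CPM with IL-1β, against 112 ± 19.6 CPM with PBS (log2 0.91 ± 0.11, edgeR adjusted p = 0.000493). Aifm1, a mitochondrial flavoprotein released in cell death, averaged 139 ± 9.33 CPM with IL-1β and 104 ± 6.18 CPM with PBS at 1 day, a log2 fold change of 0.41 ± 0.11 (edgeR adjusted p = 0.0419). Its call was lost without any 1 of 5 libraries (IL-1β 1-day replicates 1 and 2, PBS 1-day replicates 1 and 2, or PBS 20-day replicate 2), with adjusted p up to 0.184. At 20 days Casp6, an executioner caspase, averaged 74.1 ± 3.50 CPM with IL-1β and 55.8 ± 3.14 CPM with PBS (log2 0.41 ± 0.09, edgeR adjusted p = 0.0103), and Birc5 averaged 125 ± 8.44 CPM with IL-1β and 94.5 ± 8.15 CPM with PBS (log2 0.41 ± 0.10, edgeR adjusted p = 0.0207). The 20-day Birc5 call was lost without replicate 1 or 3 of either group, with adjusted p up to 0.0733. For the difference between durations edgeR called 0 of 19, limma-voom called 0 and DESeq2 called 2. At an unadjusted p under 0.05 were 8 of the 19, against 2842 of all 15466 genes tested. The smallest p was that of Birc5, at -0.51 (edgeR adjusted p = 0.0872).

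Of 11 death receptor genes edgeR called 0 at 1 day, limma-voom called 0 and DESeq2 called 1 (Casp8, adjusted p = 0.00891). At an unadjusted p under 0.05 were 3 of the 11, against 2899 of all 15466 genes tested. Casp8, which cleaves Bid, averaged 230 ± 24.7 CPM with IL-1β and 182 ± 17.1 CPM with PBS (log2 0.34 ± 0.09, edgeR adjusted p = 0.0604). At 20 days Fas, the death receptor, rose to 8.56 ± 1.52 CPM with IL-1β, against 5.14 ± 0.763 CPM with PBS (log2 0.74 ± 0.18, edgeR adjusted p = 0.0204). Leaving out replicate 1 or 4 of the IL-1β libraries, or 1 or 3 of the PBS libraries, ended that call, with adjusted p up to 0.101. Of 17 regulators of the members edgeR called 1 at 1 day, Pim2, a kinase that phosphorylates Bad, at 89.8 ± 7.46 CPM with IL-1β and 58.1 ± 10.3 CPM with PBS (log2 0.63 ± 0.12, edgeR adjusted p = 0.00764), but this was no longer called with PBS replicate 1 left out (adjusted p = 0.0547). At 20 days edgeR called 0 of 17, limma-voom called 1 and DESeq2 called 3. At an unadjusted p under 0.05 were 5 of the 17, against 3162 of all 15466 genes tested. The smallest p was that of Stat3, at 504 ± 35.2 CPM with IL-1β and 406 ± 43.7 CPM with PBS (log2 0.32 ± 0.09, edgeR adjusted p = 0.0579). Its IL-1β libraries ran from 483 to 557 CPM with a median of 488 CPM, so that 1 library lay well above the others.

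Markers of other cells moved with IL-1β at 20 days, beside the changes of Bid, Pmaip1 and Bok. Flt3 and Cd48, which the sort selects against, rose (2 of 2) and summed to 84.2 to 148 CPM with IL-1β and 43.9 to 65.6 CPM with PBS. Of 6 tested megakaryocyte markers 3 rose, with sums of 859 to 1474 CPM with IL-1β and 637 to 761 CPM with PBS. Of 6 tested erythroid markers 2 rose and 1 fell, with sums of 154 to 191 CPM with IL-1β and 46.9 to 72.4 CPM with PBS. Of 3 tested mast cell and basophil markers 2 rose, with sums of 8.59 to 27.6 CPM with IL-1β and 4.46 to 7.91 CPM with PBS. The 27.6 CPM was that of IL-1β replicate 3, the library with neutrophil RNA, and replicates 1, 2 and 4 had 9.72, 8.59 and 8.76 CPM. Of 8 tested macrophage markers 3 fell, with sums of 21.8 to 27.1 CPM with IL-1β and 26.3 to 55.8 CPM with PBS. The T and NK list summed to 90.8 to 109 CPM with IL-1β and 44.8 to 61.4 CPM with PBS. Most of it was Nkg7 (85.6 ± 8.59 CPM with IL-1β and 40.8 ± 6.10 CPM with PBS, TMM-scaled), while Cd3d and Cd3g were near 0. The B cell list summed to 51.5 to 60.9 CPM with IL-1β and 41.7 to 53.3 CPM with PBS. Of 8 tested neutrophil markers 1 rose. Of the 10 stem cell markers Slamf1, which encodes the CD150 of the sort, rose at 20 days (log2 0.81 ± 0.12, edgeR adjusted p = 0.000925). At 1 day 1 of 6 megakaryocyte markers fell, and 1 of 6 erythroid markers rose. The part of these cells in the changes of the members was not tested.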

How the data were processed

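The authors deposited 1 table of whole-number counts per gene symbol. Among tools, the submitters' processing notes list STAR 2.4.2a, Trimmomatic 0.32 and HTSeq 0.6.1, then DESeq2 1.12.3, Cuffdiff and Cufflinks 2.0.2, with build GRCm38.p4 and no roles. The gene annotation and the strand setting were not given in the sources used. Per the labels' protocols, SMARTer-amplified cDNA went into Nextera XT libraries read from a single end, which does not mark the strand.

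Genes with enough counts (filterByExpr, minimum 10) were fitted with edgeR 4.0.16 in R 4.3.3: TMM factors, robust quasi-likelihood F-tests, two-sided, over all 14 libraries, with terms for the naming set and, per duration, for IL-1β. It tested 15466 of 24833 genes with 8 residual degrees of freedom, and p-values were adjusted over all genes tested (Benjamini-Hochberg, threshold 0.05). SEs are the log2 fold change over the root of F and are approximate. Alternatives were DESeq2 1.42.0, limma-voom 3.58.1, other scalings, no filter, no naming set term, single sets and leaving out each library. The script was checked on simulated counts. Lengths and coordinates come from GENCODE vM21, promoters from RefSeq (GRCm38.p6). No pair of libraries in a group agreed within sampling noise.

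The members and the lists were chosen with earlier results of these data known. All 10 members are named; from each other list all called genes are named (at most 6 per comparison) or, where none was called, the 1 with the smallest p; and for the member with the smallest p in each IL-1β comparison the 3 genes with the most similar log2 CPM (prior count 2). No sequence or position is given for Pmaip1. The result of 1 stem cell marker is not reported here.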

Additional observations from a re-analysis of the deposited data

Results flagged for a closer look

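The effect of IL-1β after 20 days differed from that after 1 day for 3 of the 56 tested genes of the lists around the family. The test was of the difference itself (20-day log2 effect minus 1-day log2 effect, edgeR). These 3 are 5.36% of the lists, against 2.14% of all genes called. For Bok the difference was -2.31 ± 0.47 (adjusted p = 0.0295): Bok averaged 3.14 ± 1.65 CPM with IL-1β and 8.68 ± 2.36 CPM with PBS at 20 days (SD, n = 4 each), and 13.3 ± 1.28 CPM with IL-1β and 7.89 ± 0.528 CPM with PBS at 1 day (SD, n = 3 each). This call was lost in 8 of 14 fits that left out 1 library. For Fas it was 1.11 ± 0.27 (adjusted p = 0.0498), lost in 13 of 14 such fits. For Pim2 it was -0.78 ± 0.16 (adjusted p = 0.0285), lost in 5 of 14, with 65.8 ± 2.04 CPM with IL-1β and 73.5 ± 8.66 CPM with PBS at 20 days. Duration and naming set cannot be told apart in these differences. No library lay far from the other 3 of its group in the 22 groups of 4 libraries looked at, which did not cover every gene named in the report.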

How the results depend on the processing

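Over the members and the settings run, 727 values kept their direction and their side of the threshold, 39 changed sign, 9 passed and 5 no longer passed, and the cause was not tested. Genes called at 1 day, at 20 days and for the difference were 672, 1154 and 331, and became 290, 525 and 23 without the naming set term (members called at 20 days 1), and 1398, 1809 and 1182 in DESeq2 (members 1, 4 and 1). Fitted on the 2 groups of a comparison alone they were 1200 and 750, and within a set 2 (10k), 1152 (E060216), 444 (E061316, 0 members) and 1979 (untagged). With the replicate block they were 383, 672 and 23; same-numbered libraries correlated at -0.03 to 0.27, so the numbers are not taken as pairs. In settings added after seeing the data, they were 1519, 543 and 80 without the untagged set (members 1, 1 and 0), and 1433 for the difference without E061316 (members 1). Leaving out 1 library gave 228 to 1244, 648 to 1156 and 34 to 604 genes, and 0, 2 to 3 and 0 to 1 members.

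Members changed sign where their fold change was small. At 1 day Pmaip1 became 0.013 (replicate block), 0.12 (10k) and 0.042 (limma-voom), and Bcl2l1 0.041 (E060216) and 0.043 (without 10k). At 20 days Bax became 0.11 and Bbc3 -0.17 within E061316 or without the untagged set, and within the untagged set Bcl2 became -0.021, Mcl1 0.15 and Bad -0.21 (without E061316, -0.021, 0.15 and -0.22). Without the untagged set the differences between durations became -0.10 (Mcl1), 0.0032 (Bid) and 0.041 (Bad). With 1 library left out the 1-day values ran over -0.081 to 0.051 (Bcl2l1), -0.093 to 0.34 (Bak1) and -0.54 to 0.60 (Pmaip1), the 20-day values over -0.052 to 0.072 (Bcl2), -0.11 to 0.062 (Bax), -0.050 to 0.20 (Bad) and -0.054 to 0.15 (Bbc3), and the difference for Bcl2l11 over -0.0043 to 0.14. Bak1 had 28 to 62 counts per library and Pmaip1 0 to 102.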
